A study of Mus musculus with 12 samples.

Results

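The levels of 10 genes for acute phase proteins of the liver were followed in mice in which the lncRNA mGULL was knocked down and in mice that also received its human counterpart hGULL. The members are Saa1, Saa2, Saa4, Apcs, Orm1, Orm2, Hp, Lcn2, Serpina3n and Hamp, picked out by gene name. They were chosen with earlier results of these data known. They were 10 of the 55385 features of the deposited TPM table, and 10 of 10 were among the 16378 features with a mean TPM of at least 1 that were tested. TPM counts transcripts per 1000000 and is a level corrected for transcript length, so levels of different genes can be compared with each other.

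RNA-Seq was performed on the livers of 12 male C57BL/6 mice injected at an age of 7 weeks with 500000000 plaque-forming units of adenovirus and killed on day 7. The 4 mice of the GULL_control group received a Lac virus with empty pAdV5 virus, the 4 mice of the mGULL_knockdown group a virus with a short hairpin RNA against mGULL together with pAdV5, and the 4 mice of the hGULL_rescue group the hairpin virus together with a virus expressing hGULL. All 3 groups carried adenovirus, and no uninfected mice were analysed here, so the levels below describe virus-infected livers. The study's methods name both an intravitreal and a retro-orbital injection. They describe no cell-type restriction of expression, and the tissue is whole liver, in which fewer cells of a type and less RNA per cell cannot be told apart. The levels of mGULL and hGULL were not analysed here.

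The liver answers infection or injury by changing the mix of proteins it secretes into the blood, which is called the acute phase response. Interleukin 6, acting through the kinases JAK1 and JAK2 and the transcription factor STAT3, and interleukin 1, acting through NF-kB and C/EBP factors, raise the positive acute phase genes in hepatocytes. Albumin, transthyretin and other negative acute phase proteins fall at the same time. Hepcidin, encoded by Hamp, answers both to interleukin 6 through STAT3 and to iron through the BMP and SMAD pathway, and it blocks iron export by binding ferroportin.

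The clearest difference within a gene family was between Hamp and its neighbouring copy Hamp2. Saa4 was called where Saa2, of the same cluster, was not. Their log2 fold changes in knockdown minus control were -0.60 for Saa4 and -0.47 for Saa2. The confidence interval of Saa2, -1.22 to 0.27, holds the value of Saa4, and a difference between the genes was not tested. Upstream sequence of these 4 genes is shown. Each is the run of 250 bases that ends just before the transcription start in RefSeq (GRCm38.p6, the build of the deposited files), read 5′ to 3′ on the strand of the gene. Capitals mark TTCNNNGAA (the STAT motif), TTNNGNAAT or its reverse complement (the C/EBP motif) and GGCGCC (the BMP response element). The NF-kB motif, GGG and TTTCC with 2 bases between them, was searched too, each motif on both strands, and no 2 matches overlapped in these windows.
Hamp, chr7:30944030-30944279, minus strand: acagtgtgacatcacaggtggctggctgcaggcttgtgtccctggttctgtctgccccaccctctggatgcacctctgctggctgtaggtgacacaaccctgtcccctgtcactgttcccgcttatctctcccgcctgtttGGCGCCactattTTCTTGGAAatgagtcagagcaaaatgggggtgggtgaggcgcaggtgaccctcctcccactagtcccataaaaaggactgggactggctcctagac
Hamp2, chr7:30924182-30924431, minus strand: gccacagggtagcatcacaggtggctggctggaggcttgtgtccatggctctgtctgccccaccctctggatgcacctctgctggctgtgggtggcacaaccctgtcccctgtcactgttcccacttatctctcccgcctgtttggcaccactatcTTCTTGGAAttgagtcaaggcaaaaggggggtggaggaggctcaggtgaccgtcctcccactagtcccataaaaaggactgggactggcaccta
Saa2, chr7:46751583-46751832, plus strand: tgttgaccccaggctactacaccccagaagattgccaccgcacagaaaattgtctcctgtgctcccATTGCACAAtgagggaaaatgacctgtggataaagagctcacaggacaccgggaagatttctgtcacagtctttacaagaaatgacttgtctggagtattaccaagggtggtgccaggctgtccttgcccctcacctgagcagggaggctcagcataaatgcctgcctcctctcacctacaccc
Saa4, chr7:46732604-46732853, minus strand: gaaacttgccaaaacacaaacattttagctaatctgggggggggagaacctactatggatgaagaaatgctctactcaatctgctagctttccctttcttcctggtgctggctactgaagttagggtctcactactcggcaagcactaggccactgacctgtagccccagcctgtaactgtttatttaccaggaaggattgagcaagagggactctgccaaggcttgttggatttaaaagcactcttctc

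The windows of Hamp and Hamp2 were 91.9% identical, with 40 bases as the longest shared run. Both held the STAT letters TTCTTGGAA, from base 97 to base 89 before the start in Hamp and from base 94 to base 86 in Hamp2. GGCGCC, from base 109 to base 104, was in the Hamp window and not in the Hamp2 window. The Saa2 window held the C/EBP letters in reverse complement, ATTGCACAA, from base 184 to base 176, and the Saa1 window, 95.6% identical to it, held the same letters. None of the 4 motifs was in the windows of Saa4 or Lcn2. Apcs held the STAT letters, Orm2 held the C/EBP letters, and Serpina3n held C/EBP letters in 2 places and the NF-kB letters GGGCTTTTCC. Of 32851 windows of the same length, 7.02% held the STAT motif, 10.2% the C/EBP motif, 1.41% the NF-kB motif and 9.59% GGCGCC. A match is a description of the letters and not a measured binding site. The windows of 8 of the 10 genes were matched, and those of Orm1 and Hp were not used here. For Saa1 and Serpina3n the start used for the window lies inside the annotated gene, so part of their windows is transcribed sequence in some annotated transcripts.

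Many members lie in clusters of related genes. On chromosome 7, Saa3, Saa4, Saa1 and Saa2 follow each other between 46711998 and 46754313, with 7893 bp between Saa4 and Saa1 and 8651 bp between Saa1 and Saa2. Hamp2 ends 18186 bp before Hamp begins on the same chromosome. On chromosome 4, Orm1, Orm3 and Orm2 lie between 63344556 and 63365877. Aligned transcripts of Saa1 and Saa2 were 94.3% identical with a shared run of 99 bases, those of Orm1 and Orm2 were 91.0% identical with a shared run of 141 bases, and those of Hamp and Hamp2 were 91.7% identical with a shared run of 87 bases. Identity is over the locally aligned part, which for Hamp and Hamp2 had 435 positions where the Hamp transcript has 684 bases. Reads that fall in the shared runs cannot be assigned to a single copy, so the split within these pairs is uncertain, and the sum of each pair is given as well.

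The defining hepatocyte markers were present in the libraries, with a mean of 56814 TPM for albumin (Alb). The 20 features of highest mean TPM over the 12 libraries took between 24.6% and 34.2% of the TPM of each library. Each library had between 15525 and 16929 features above 1 TPM and summed to 1000000 TPM. Depth is therefore unknown, and the spread between the 4 mice gives the precision. The labels do not tell from which cages or days the mice came, so P values measure the spread between these 12 samples. A gene was called past the threshold of the study, which asks for more than 0.5 on the log2 scale and for an unadjusted P under 0.05, here from limma. In knockdown minus control, 876 tested genes were called higher (5.35%) and 377 lower (2.30%). Scaling by the median of ratios, which sets the typical gene to no change, gave 608 higher and 571 lower. Rescue minus knockdown gave 382 higher (2.33%) and 110 lower (0.672%), against 250 and 163 after that scaling. Rescue minus control gave 1121 higher (6.84%) and 105 lower (0.641%), against 481 and 240. Over all tested genes the median change was 0.09, 0.09 and 0.17 in the 3 comparisons, and the members' values are to be read against these shifts.

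The 10 genes spanned a wide range of levels. Hp was the highest with a mean of 5688 TPM over the 12 mice, at rank 20 of all features, followed by Hamp with 1903 TPM and Orm1 with 1098 TPM. Serpina3n averaged 589 TPM, Saa4 averaged 420 TPM, Apcs averaged 121 TPM and Saa1 averaged 118 TPM. Saa2, Lcn2 and Orm2 were the lowest with 74.1, 59.0 and 53.3 TPM. Among neighbours in this order, the ranges over the 12 mice were apart for Hp and Hamp and for Saa4 and Apcs, and they overlapped for the other 7 pairs. Hamp was nevertheless above Orm1, Orm1 above Serpina3n, Serpina3n above Saa4 and Saa1 above Saa2 within each of the 12 mice, whereas Lcn2 was above Orm2 in 6 of them.

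After knockdown Hamp and Saa4, 2 of the 10 genes, were called lower, where 2.30% of all tested genes were called lower and 5.35% higher. Together the 10 genes summed to 10655 to 12332 TPM in the control mice, 9159 to 9912 TPM in the knockdown mice and 9217 to 10022 TPM in the rescue mice. The control range lay above both others, and the knockdown and rescue ranges overlapped. The sum is weighted to the most abundant genes, with means of 5688 TPM for Hp and 1903 TPM for Hamp out of 10124 TPM. From control to knockdown the mean of Hamp went from 2372 to 1420 TPM, of Orm1 from 1282 to 978 TPM and of Hp from 6006 to 5868 TPM. In rescue mice the means of Hp and Hamp were 5191 and 1918 TPM. The sum thus says little about the less abundant genes. The log2 fold change of knockdown minus control was negative for 10 of 10 genes, with a median of -0.45, where 34.5% of all tested genes were negative. The other 8 genes were not called, and 0 of 10 had an adjusted p under 0.05 in limma, where 3.23% of all tested genes did. With other settings 0 to 2 of the 10 did, 2 of them with a mean TPM of at least 5 and without control mouse 1, and 1 with median-of-ratios scaling, quantile normalization, a total without the 20 highest features, and without knockdown mouse 3 or 4. At an unadjusted P under 0.05, 3 of the 10 genes passed, the third being Orm1, where 20.2% of all tested genes passed. The knockdown and control mice did not overlap for 1 of the 10, Hamp, where 2.06% of all tested genes lay apart with the knockdown group lower and 6.93% with it higher.

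**Figure D1:**
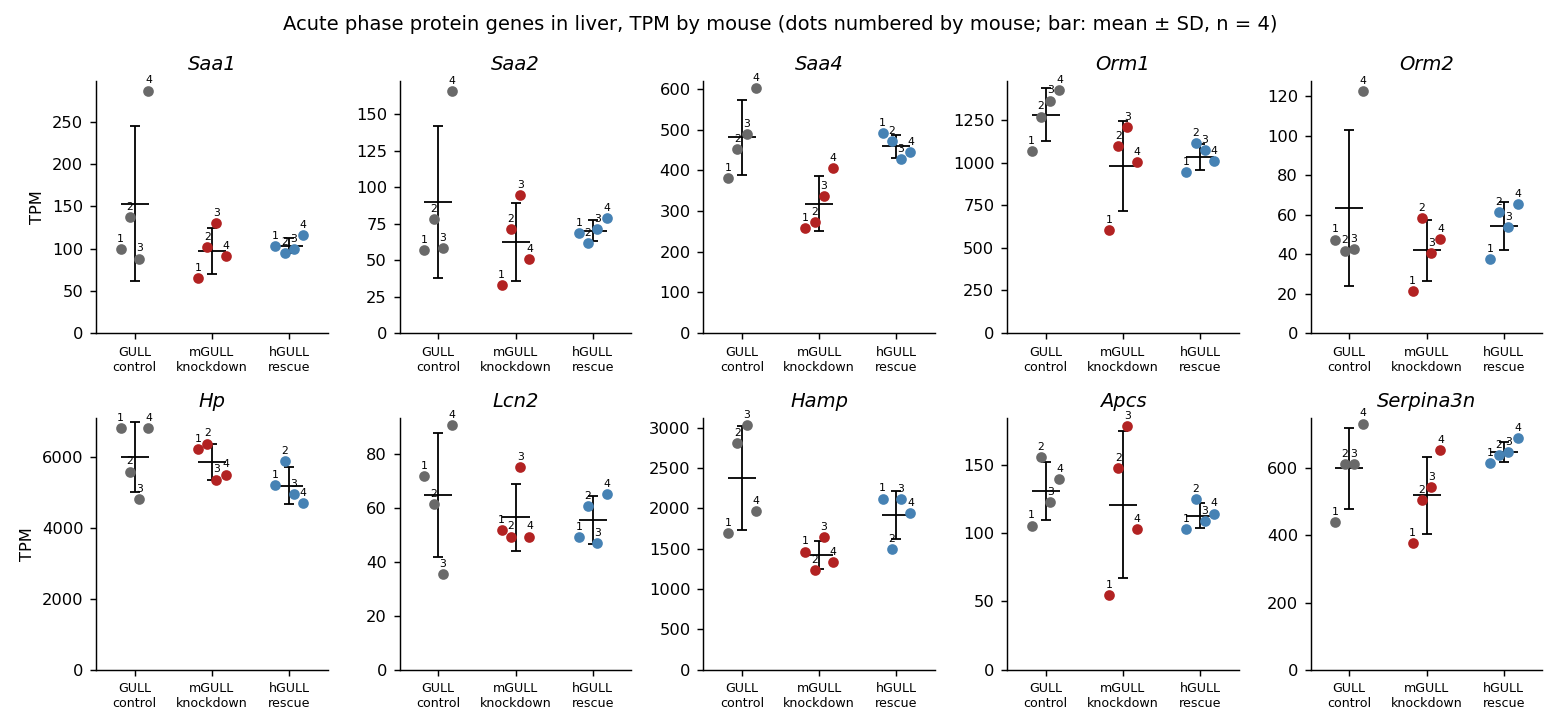
TPM of the 10 acute phase protein genes (y axis, from 0) in the 12 mice (dots, numbered by mouse within a group), with the mean ± SD of the 4 mice of each group. Hamp is lower in the 4 knockdown mice (1233 to 1644 TPM) than in the 4 control mice (1690 to 3031 TPM), and control mouse 4 stands above the other mice in Saa1, Saa2 and Orm2.

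Much of this movement rested on single mice. Control mouse 4 had the highest level of the 12 mice for 7 of the 10 genes, and knockdown mouse 1 had the lowest for 7 of the 10. Without control mouse 4, 8 of 10 genes remained negative in knockdown minus control with a median of -0.16, and 1 gene, Hamp, was called. Without knockdown mouse 1, 9 of 10 were negative with a median of -0.21, and 2 genes were called. The spread was smallest in the rescue group for 8 of the 10 genes. The median SD on the log2 scale was 0.36 in control, 0.37 in knockdown and 0.13 in rescue mice for the 10 genes, against 0.19, 0.24 and 0.13 over all tested genes.

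With hGULL added, Saa4 was the single gene called higher relative to knockdown, where 2.33% of all tested genes were called higher and 0.672% lower. Of the 10 log2 fold changes, 8 were positive, with a median of 0.20, where 29.1% of all tested genes were negative. The other 9 genes were not called, and 0 of 10 passed an adjusted p under 0.05 in limma, as did 0.00% of all tested genes. Saa4 and Hamp were the 2 genes with an unadjusted P under 0.05, which 10.7% of tested genes reached. Saa4 was also the single gene whose rescue and knockdown mice lay apart, where 5.40% of all tested genes lay apart with the rescue group higher and 0.983% with it lower. Without knockdown mouse 1 the sign held for fewer genes, with 4 of 10 positive, a median of -0.02 and 0 called. In rescue minus control, 9 of 10 were negative, with a median of -0.20 where 18.1% of all tested genes were negative. None of the 10 was called in limma, where 6.84% of all tested genes were called higher and 0.641% lower. None had an adjusted p under 0.05 in limma, which 2.15% of tested genes reached, or an unadjusted P under 0.05, which 25.3% reached. With array weights in limma, 1 of the 10 did, Orm1 at an adjusted p of 0.0451. None lay apart between rescue and control mice, where 21.4% of tested genes did with the rescue group higher and 0.855% with it lower. After scaling by the median of ratios, 10 of 10 were negative with a median of -0.40, and Orm1 was called lower. Without control mouse 4, 5 of 10 were negative with a median of -0.01. The comparisons share the knockdown or the control mice, so their values are not independent of each other.

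**Figure D2:**
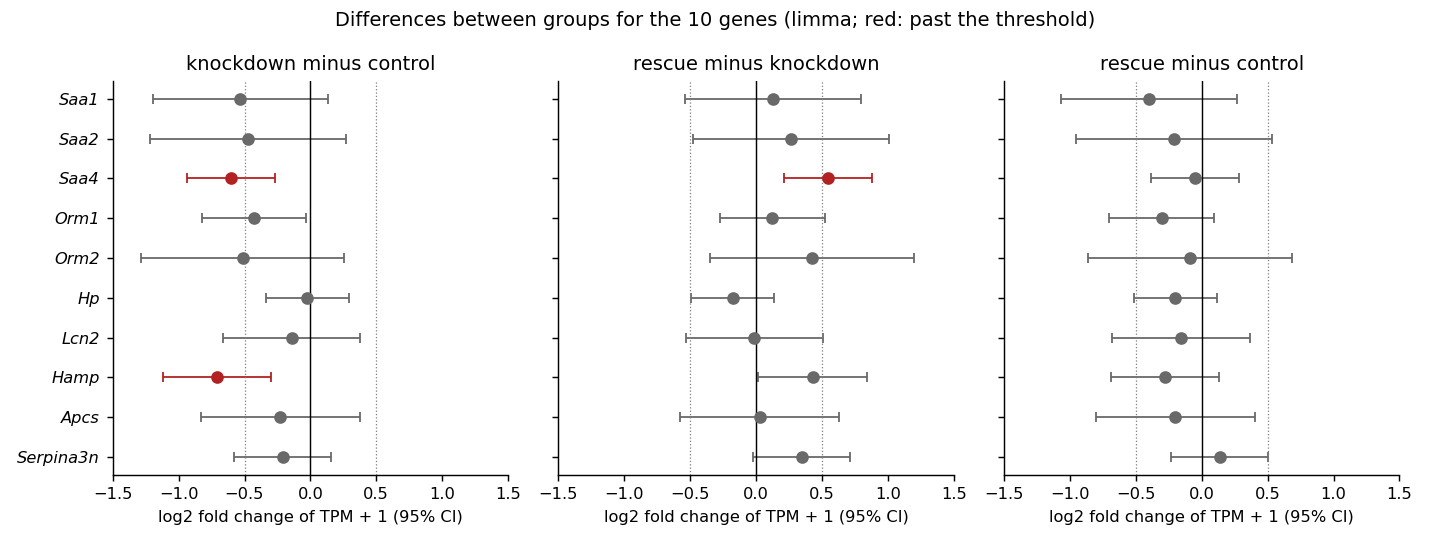
Log2 fold change of TPM + 1 (x axis) with its 95% confidence interval from limma for each of the 10 genes (y axis) in the 3 comparisons, with dotted lines at -0.5 and 0.5 and genes past the threshold in red. The intervals of Saa4, Hamp and Orm1 lie below 0 in knockdown minus control, those of Saa4 and Hamp lie above 0 in rescue minus knockdown, and 10 of 10 cross 0 in rescue minus control.

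The serum amyloid A proteins travel on HDL. Saa1 and Saa2 are the inducible forms, whereas Saa4 is made constitutively. Saa4 measured 382, 454, 490 and 603 TPM in the control mice, 259, 272, 337 and 406 TPM in the knockdown mice, and 492, 472, 428 and 445 TPM in the rescue mice. The highest knockdown mouse exceeded the lowest control mouse, while the 4 rescue mice lay above the 4 knockdown mice and within the control range. The mean was 482 ± 92.1 TPM (SD, n = 4) in control, 318 ± 67.6 TPM in knockdown and 459 ± 28.6 TPM in rescue mice. Saa4 fell by 0.60 on the log2 scale in knockdown minus control (SE 0.15, adjusted p = 0.0547 in limma) and rose by 0.55 in rescue minus knockdown (SE 0.15, adjusted p = 0.324). An exact two-sided permutation test gave p = 0.0571 for the former and p = 0.0286 for the latter, the smallest value that 4 mice against 4 allow. Rescue minus control was -0.05 (95% CI -0.39 to 0.28). Without control mouse 4 the fall was 0.49, and without knockdown mouse 1 or 2 the rise was 0.46 or 0.48, each short of the threshold of 0.5. With median-of-ratios scaling, quantile normalization, a total without the 20 highest features or array weights the rise was 0.45, 0.50, 0.48 and 0.40 and was not called.

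Saa1 had levels of 99.7, 137, 88.0 and 287 TPM in the control mice, 65.0, 102, 130 and 91.2 TPM in the knockdown mice, and 103, 95.3, 99.4 and 116 TPM in the rescue mice. Control mouse 4 was the only one far above the rest, and the 3 groups overlapped. The log2 fold change was -0.53 in knockdown minus control (95% CI -1.20 to 0.14), 0.13 in rescue minus knockdown (95% CI -0.54 to 0.79) and -0.40 in rescue minus control (95% CI -1.07 to 0.26). Saa2 followed the same mice, with 56.7, 78.3, 58.1 and 166 TPM in control, 33.0, 71.2, 94.6 and 50.7 TPM in knockdown, and 68.6, 61.6, 71.3 and 79.1 TPM in rescue mice. Its log2 fold change was -0.47 in knockdown minus control (95% CI -1.22 to 0.27), 0.26 in rescue minus knockdown and -0.21 in rescue minus control, with overlapping groups throughout. Saa1 and Saa2 together differed by -0.51 in knockdown minus control on the log2 scale (exact permutation p = 0.371). Saa2 made up between 33.7% and 42.0% of the pair in the 12 mice. Neither inducible gene passed the test in any of the 3 comparisons, and each of their intervals still holds changes beyond 0.5 in at least 1 direction.

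Saa3, the serum amyloid gene that macrophages also make and a neighbour of Saa4 on chromosome 7, is not among the 10. It measured 60.6, 50.7, 36.5 and 54.9 TPM in control, 73.0, 97.8, 71.5 and 73.1 TPM in knockdown, and 105, 96.8, 63.1 and 80.7 TPM in rescue mice. The knockdown and rescue mice lay above the control mice without overlap. Saa3 rose in knockdown minus control by 0.64 (SE 0.18, adjusted p = 0.0712 in limma) and in rescue minus control by 0.75 (SE 0.18, adjusted p = 0.0504), opposite in sign to Saa1, Saa2 and Saa4. Of the 11 tested Kupffer cell and macrophage markers, led by Cd5l and C1qb, 0 were called higher and 1, Marco, was called lower in knockdown minus control. Over all tested genes 5.35% were called higher and 2.30% lower there. The summed levels of the markers were 722 to 1214 TPM in control, 692 to 1202 TPM in knockdown and 869 to 1087 TPM in rescue mice. The part of these cells in the value of Saa3 was not tested.

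Apcs encodes serum amyloid P, the pentraxin that serves as a main acute phase protein in mice. Its level was 105, 155, 123 and 139 TPM in control, 54.6, 147, 178 and 103 TPM in knockdown, and 103, 124, 109 and 114 TPM in rescue mice. The knockdown mice held both the lowest and the highest of the 12 values. The log2 fold change was -0.23 in knockdown minus control (95% CI -0.83 to 0.38), 0.03 in rescue minus knockdown and -0.20 in rescue minus control, and none passed the test. The sign in knockdown minus control turned to 0.11 without knockdown mouse 1.

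Orm1 and Orm2 encode orosomucoid, also called alpha-1-acid glycoprotein, a carrier of basic drugs and lipids in plasma. Orm1 measured 1070, 1270, 1364 and 1424 TPM in control, 604, 1096, 1209 and 1004 TPM in knockdown, and 942, 1115, 1072 and 1008 TPM in rescue mice. Knockdown mouse 1 was far below the rest, and the other 3 knockdown mice overlapped the range of the rescue mice. Orm1 had a log2 fold change of -0.43 in knockdown minus control (SE 0.18, adjusted p = 0.211 in limma), short of the threshold, of 0.12 in rescue minus knockdown (95% CI -0.27 to 0.52) and of -0.30 in rescue minus control (95% CI -0.70 to 0.09). After scaling by the median of ratios the difference in knockdown minus control was -0.54 and was called. Orm2 measured 47.4, 41.8, 42.4 and 123 TPM in control, 21.4, 58.4, 40.4 and 47.6 TPM in knockdown, and 37.5, 61.1, 53.9 and 65.3 TPM in rescue mice. A single control mouse was high and a single knockdown mouse was low, and the groups overlapped. Its log2 fold change was -0.52 (95% CI -1.29 to 0.26) in knockdown minus control, 0.43 (95% CI -0.35 to 1.20) in rescue minus knockdown and -0.09 (95% CI -0.86 to 0.68) in rescue minus control. The sum of Orm1 and Orm2 gave -0.44 in knockdown minus control (exact permutation p = 0.0857).

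Hp encodes haptoglobin, which binds free haemoglobin in plasma. Its level was 6821, 5587, 4811 and 6805 TPM in control, 6230, 6378, 5363 and 5501 TPM in knockdown, and 5212, 5894, 4958 and 4698 TPM in rescue mice. It varied least of the 10 genes, by 1.45-fold between the lowest and the highest mouse. The log2 fold change was -0.02 in knockdown minus control (95% CI -0.34 to 0.29), -0.18 in rescue minus knockdown (95% CI -0.49 to 0.14) and -0.20 in rescue minus control (95% CI -0.51 to 0.11). The interval in knockdown minus control leaves out changes beyond 0.5 in either direction, although after quantile normalization the value was 0.25.

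Lcn2 encodes lipocalin 2, which withholds iron from bacteria by binding their siderophores, and neutrophils carry it in their granules. It measured 71.8, 61.6, 35.4 and 90.8 TPM in control, 52.0, 49.4, 75.3 and 49.4 TPM in knockdown, and 49.2, 60.8, 46.9 and 65.2 TPM in rescue mice. The groups overlapped in each comparison. Its log2 fold change was -0.14 in knockdown minus control (95% CI -0.66 to 0.38), -0.02 in rescue minus knockdown (95% CI -0.54 to 0.51) and -0.16 in rescue minus control (95% CI -0.68 to 0.36). Summed over 12 neutrophil markers, of which 10 were tested and 0 were at 0 in all mice, the level was 157 to 342 TPM in control, 175 to 412 TPM in knockdown and 138 to 209 TPM in rescue mice. In rescue minus knockdown 4 of the 10 tested markers were called lower, where 0.672% of all tested genes were. They were S100a8 and S100a9, at -0.78 and -0.84, together with Mmp8 and Ngp. The part of neutrophil RNA in the value of Lcn2 was not tested.

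Serpina3n encodes a serine protease inhibitor of the antichymotrypsin family. Its level was 441, 613, 611 and 732 TPM in control, 376, 504, 544 and 654 TPM in knockdown, and 616, 639, 648 and 689 TPM in rescue mice. Knockdown mouse 4 reached the rescue range, and the other 3 knockdown mice lay below it. The log2 fold change was -0.21 in knockdown minus control (95% CI -0.58 to 0.16), 0.35 in rescue minus knockdown (95% CI -0.02 to 0.71) and 0.13 in rescue minus control (95% CI -0.23 to 0.50), and none passed the test.

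Hamp encodes hepcidin, the hormone that lowers plasma iron. Its level was 1690, 2807, 3031 and 1962 TPM in control, 1464, 1233, 1644 and 1337 TPM in knockdown, and 2120, 1497, 2118 and 1937 TPM in rescue mice. The 4 knockdown mice lay below the 4 control mice, by a small margin for the nearest pair, and 3 of the 4 rescue mice lay above the knockdown mice. The mean was 2372 ± 647 TPM (SD, n = 4) in control, 1420 ± 177 TPM in knockdown and 1918 ± 293 TPM in rescue mice. Hamp fell by 0.71 on the log2 scale in knockdown minus control (SE 0.19, adjusted p = 0.0616 in limma), and the exact two-sided permutation test gave the smallest p it can, 0.0286. Leaving out each mouse in turn kept the call, with values between -0.86 and -0.57. Hamp differed by 0.43 in rescue minus knockdown (95% CI 0.02 to 0.84, adjusted p = 0.452), short of the threshold, although without knockdown mouse 3 or rescue mouse 2 it was called at 0.50 and 0.54. Rescue minus control was -0.28 (95% CI -0.69 to 0.13).

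Hamp2, a further hepcidin gene of the mouse and the neighbour of Hamp, moved the other way. It measured 46.7, 23.8, 18.4 and 31.5 TPM in control, 141, 138, 56.9 and 123 TPM in knockdown, and 98.5, 84.1, 57.0 and 44.9 TPM in rescue mice. The knockdown mice lay above the control mice without overlap, and 3 of the 4 rescue mice did too. Hamp2 rose by 1.90 on the log2 scale in knockdown minus control (SE 0.34, adjusted p = 0.0153 in limma) and by 1.23 in rescue minus control. Under the other limma settings with all mice kept, its adjusted p in knockdown minus control reached 0.0531. Its share of the summed Hamp and Hamp2 level was 1.43% ± 0.937 (SD, n = 4) in control, 7.67% ± 2.97 in knockdown and 3.66% ± 1.46 in rescue mice. The share was 6.24 percentage points higher in knockdown than in control mice (exact two-sided permutation p = 0.0286), and between 5.44 and 7.69 points higher when each mouse was left out in turn (exact p up to 0.0571). In rescue minus knockdown the share differed by -4.01 percentage points (exact two-sided permutation p = 0.0857). The share was measured after the values of both genes had been seen. Both genes together fell by 0.61 in knockdown minus control (exact permutation p = 0.0286), since Hamp supplied most of the sum. As the printed windows show, the 2 genes share the STAT letters, and GGCGCC stands in the Hamp window alone. GGCGCC was in 9.59% of all windows, and any part of these letters in the levels of the 2 genes was not tested.

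**Figure D3:**
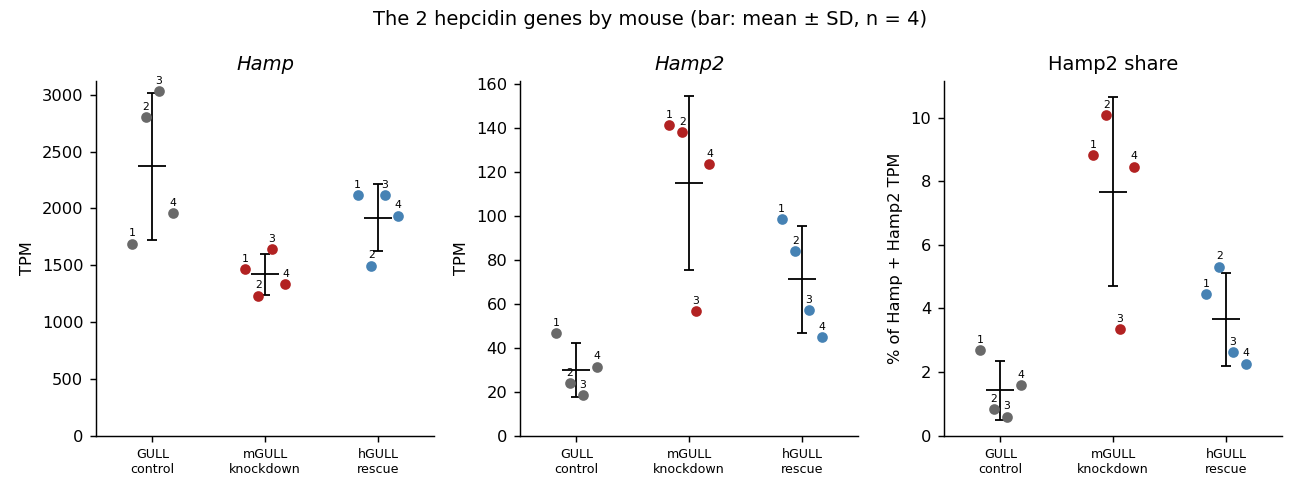
TPM of Hamp and Hamp2 and the share of Hamp2 in their sum in percent (y axes, from 0) in the 12 mice (dots, numbered by mouse), with the mean ± SD of 4 mice per group. Hamp is lower and Hamp2 higher in the knockdown mice than in the control mice, without overlap in either gene, and the share of Hamp2 is 3.34% to 10.1% in knockdown against 0.602% to 2.69% in control mice.

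Genes of the hepcidin and iron axis were counted to set beside Hamp. Of 25 tested genes, 2 were called higher and 0 lower in knockdown minus control, with a list median of 0.10. Over all tested genes 5.35% were called higher and 2.30% lower in that comparison, and 6.84% higher in rescue minus control. Smad6, an inhibitory SMAD and a target of BMP signalling, rose by 0.72 (SE 0.17, adjusted p = 0.0388 in limma), from 3.79 to 6.58 TPM in control to 7.96 to 10.4 TPM in knockdown mice without overlap. Id1, Atoh8 and Smad7 of the same list differed by -0.08, -0.20 and 0.16 in knockdown minus control and were not called. These genes were named after their values were seen, and BMP signalling itself was not tested. Tfrc, the transferrin receptor, rose by 0.61 (adjusted p = 0.234), a call that was lost without knockdown mouse 2, which alone reached 64.6 TPM, and without several other mice. No gene of the list was called in rescue minus knockdown by limma, where Smad6 had an unadjusted P of 0.0297 at -0.41. Hjv, hemojuvelin, the BMP co-receptor needed for hepcidin, rose by 0.70 in rescue minus control (SE 0.17, adjusted p = 0.0508), the only gene of the list called there. With median-of-ratios scaling it was 0.498 and not called.

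Other positive acute phase genes moved in both directions. Of 23 tested, 4 were called higher and 6 lower in knockdown minus control, with a median of -0.21, against the 5.35% of all tested genes that were called higher and the 2.30% that were called lower. Itih3, a heavy chain of the inter-alpha-trypsin inhibitors, fell by 1.03 (SE 0.18, adjusted p = 0.0125 in limma), from 495 to 669 TPM in control to 216 to 400 TPM in knockdown mice. The metallothioneins Mt2 and Mt1, which bind zinc and copper, rose by 0.99 and 0.94 with overlapping groups (adjusted p = 0.106 and 0.0809 in limma). Saa3 and Hamp2 were the others called higher. Crp, the pentraxin CRP, named after its values were seen, fell by 0.56 (adjusted p = 0.0501), from 210 to 268 TPM in control to 131 to 213 TPM in knockdown mice. The others called lower, also named after their values were seen, were Fgl1 at -0.63, Lrg1 at -0.61, Serpina3k at -0.52 and Fgb at -0.52. In rescue minus knockdown, 2 were called higher and 1, Cd14, lower, with a median of 0.15. Over all tested genes 2.33% were called higher and 0.672% lower there. Orm3, the third orosomucoid gene, rose by 0.82 (adjusted p = 0.402) and Steap4, a metalloreductase, by 0.73 (adjusted p = 0.117). In rescue minus control, 2 were called higher, Hamp2 and Saa3, and 2 lower, Itih3 and Lrg1, with a median of 0.00. The shares over all tested genes were 6.84% higher and 0.641% lower.

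No negative acute phase gene was called higher in knockdown minus control, rescue minus knockdown or rescue minus control, where 5.35%, 2.33% and 6.84% of all tested genes were. Called lower were 2.30%, 0.672% and 0.641% of all tested genes in the same order. Of 12 negative acute phase genes tested, 2 were called lower in knockdown minus control, with a list median of -0.06. They were Apoa1, the main protein of HDL, at -0.60 and Fetub, fetuin B, at -0.58. None of the list was called in rescue minus knockdown by limma, with a list median of 0.03. For Alb, Ttr and Trf, named after their values were seen, the rescue mice nevertheless lay below the knockdown mice without overlap. Their log2 fold changes were -0.23, -0.39 and -0.38, where 0.983% of all tested genes lay apart with the rescue group lower. In rescue minus control 1 gene, Apoa1, was called lower at -0.60. The hepatocyte markers gave summed levels of 86309 to 122042 TPM in control, 86870 to 104460 TPM in knockdown and 76469 to 91990 TPM in rescue mice, and 2 of 10, Apoa1 and Tat, were called lower in knockdown minus control.

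Upstream genes of the acute phase response were mostly not called. To set beside the counts here, 5.35% of all tested genes were called higher and 2.30% lower in knockdown minus control. The shares were 2.33% and 0.672% in rescue minus knockdown and 6.84% and 0.641% in rescue minus control. In the IL-6 family and STAT3 axis, 0 of 15 tested genes were called higher and 2 lower in knockdown minus control, with a median of -0.01. Lifr, the receptor of leukaemia inhibitory factor, fell by 0.81 (SE 0.16, adjusted p = 0.0231 in limma), and Socs1, an inhibitor of JAK kinases, fell by 0.61 and was called higher in rescue minus knockdown at 0.65. Il6 itself was at 0 to 0.25 TPM and was not tested. Stat3 differed by -0.01 in knockdown minus control (SE 0.11) and Socs3, a target of STAT3, by -0.11 (SE 0.14), and both were named after their values were seen. In the IL-1, TNF and NF-kB axis, 1 of 22 was called lower in knockdown minus control, the interleukin 1 receptor Il1r1 at -0.62, and 0 higher. Il1b was called lower in rescue minus knockdown at -0.50, and in rescue minus control Il18 was called higher at 0.53 and Il1r1 lower at -0.55. Among 8 glucocorticoid response genes, Tat, tyrosine aminotransferase, was the only one called, at -0.80 in knockdown minus control and -0.81 in rescue minus control. Among 7 tested receptors and partners of the acute phase proteins, 0 were called in knockdown minus control. Cd163, the receptor for haptoglobin with haemoglobin, was called lower in rescue minus control at -1.01, and Ltf, lactoferrin of neutrophil granules, was called lower in rescue minus knockdown at -0.80. The calls of Apoa1, Fetub, Socs1, Il1b, Il18, Cd163, Ltf and Orm3, and that of Il1r1 in rescue minus control, were each lost when at least 1 of the mice was left out, with no change of sign.

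**Figure D4:**
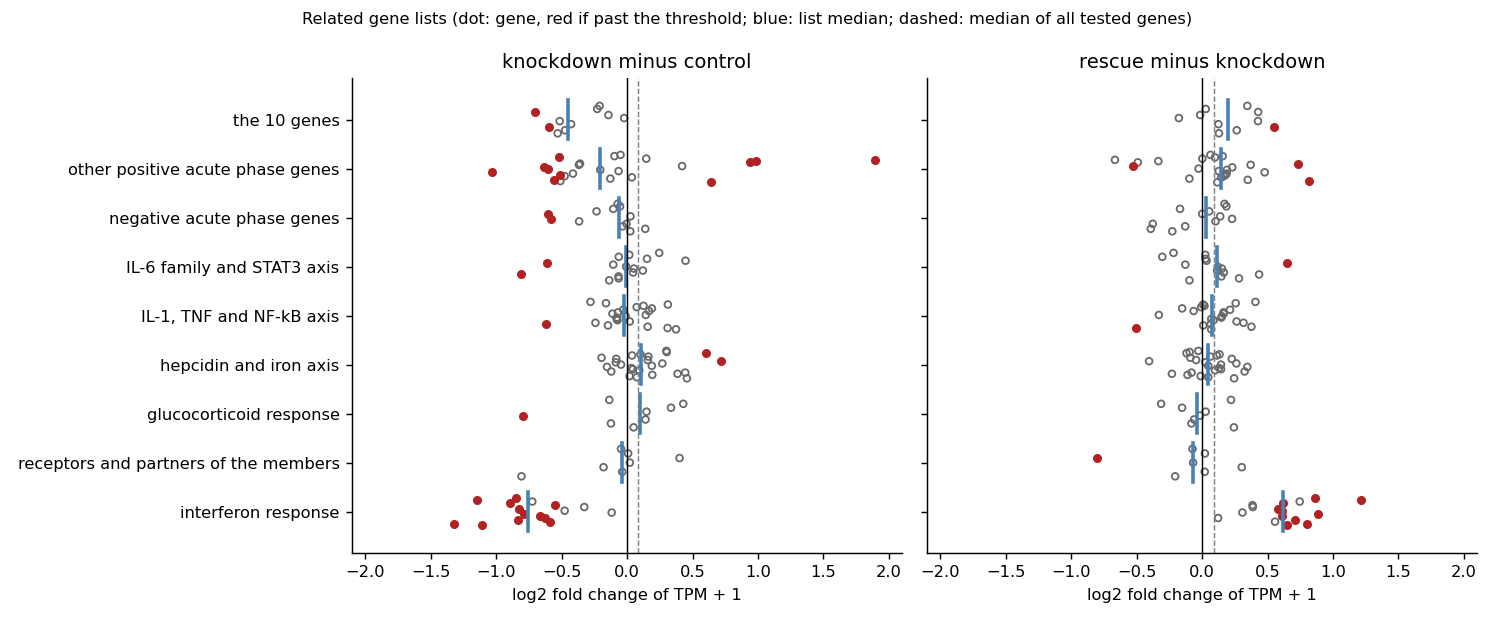
Log2 fold change of TPM + 1 (x axis) of the 10 genes and of the tested genes of 8 related lists (rows) in knockdown minus control and rescue minus knockdown, with called genes in red, list medians as blue bars and the median of all tested genes as a dashed line. The 10 genes have a median of -0.45 and the interferon response genes one of -0.76 in knockdown minus control, and the medians are 0.20 and 0.62 in rescue minus knockdown.

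The interferon response genes moved in the same comparisons. Of 16 tested, 12 were called lower in knockdown minus control with a median of -0.76, and 10 were called higher in rescue minus knockdown with a median of 0.62. Over all tested genes 2.30% were called lower in the former comparison and 2.33% higher in the latter. Ifit1, an interferon-induced RNA-binding protein, fell by 1.33 (SE 0.27, adjusted p = 0.0238 in limma) and the guanylate-binding protein Gbp2 by 1.15 (adjusted p = 0.0551). Their part in the values of the acute phase genes was not tested. Markers of other cell types were mostly not called in knockdown minus control, with 0 of 10 neutrophil, 0 of 9 stellate cell and 0 of 8 T and NK cell markers called in either direction. Where 5.35% of all tested genes were called higher, so were 1 of 7 endothelial markers (Stab2), 1 of 4 cholangiocyte markers (Sox9) and 1 of 4 B and plasma cell markers (Ighm). These 3 markers, with Marco, Mmp8, Ngp, Cd14 and Lrg1, were named after their values were seen. Summed endothelial markers, led by Stab2 and Cdh5, were at 135 to 221 TPM in control, 203 to 280 TPM in knockdown and 208 to 253 TPM in rescue mice. Stellate cell markers, led by Dcn and Col3a1, summed to 105 to 206, 157 to 206 and 148 to 182 TPM, cholangiocyte markers, led by Spp1 and Sox9, to 68.2 to 105, 57.0 to 141 and 83.3 to 118 TPM, T and NK cell markers, led by Nkg7 and Trac, to 25.3 to 78.1, 24.1 to 54.0 and 44.4 to 64.5 TPM, and B and plasma cell markers, led by Ighm and Cd79b, to 14.8 to 31.9, 25.2 to 49.8 and 21.3 to 29.4 TPM in the same order of groups. Whether these shares bear on the acute phase genes was not tested.

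The levels of the 10 genes followed each other to different degrees across the 12 mice, which share groups and scaling, so the Pearson r of log2(TPM + 1) below are descriptions. Saa1 and Saa2 were the closest pair, at r = 0.95 over 12 mice and r = 0.93 without control mouse 4. Orm1 and Apcs followed at r = 0.87, and Saa4 and Serpina3n at r = 0.82. Hamp and Hamp2 ran opposite to each other at r = -0.85. Hp and Hamp gave r = -0.49 over the 12 mice and r = -0.86 after group means were removed. Among 8285 other features with a mean TPM of at least 10, the most like Saa4 was Cpt1a, the carnitine palmitoyltransferase of fatty acid oxidation, at r = 0.94. The most like Orm1 was Il13ra1 at r = 0.93, the most like Serpina3n was Itih4 at r = 0.92, and the most like Hamp was Zfp110 at r = 0.90. Hpx, hemopexin, which binds free haem, was among the 3 most like Hp at r = 0.83, and Stat3 was among the 3 most like Apcs at r = 0.83. After Saa2, Saa1 was most like Edem1, a protein of endoplasmic reticulum quality control, at r = 0.89. B3galt1 led for Orm2 at r = 0.89, the pseudogene Gm15427 for Lcn2 at r = 0.89 and the small nucleolar RNA Gm23722 for Apcs at r = 0.87. Taking the highest r among 8285 candidates over 12 mice favours high values.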

How the data were processed

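Liver RNA-Seq values of 12 mice were analysed, 4 per group, grouped by the sample titles. Per the labels and the methods, the authors trimmed reads with fastp 0.23.2, checked them with FastQC 0.11.8, aligned them with HISAT2 2.2.1.0 to GRCm38.p6 and counted them on GENCODE VM24 genes, with featureCounts and Subread 2.0 listed by the submitters. The deposited unit is TPM, computed by the authors with a total of 1000000 per library, so depth is not known and no counting error could be given. Libraries were strand-specific.

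Values were analysed as log2(TPM + 1) in R 4.3.3 with limma 3.58.1, for 16378 features with a mean TPM of at least 1, with 1 mean per group, no covariate, empirical Bayes variances with a mean-variance trend and Benjamini-Hochberg adjustment over all of them. The methods give the threshold (log2 fold change beyond 0.5, unadjusted P under 0.05) but the test is not given in the sources used here. Fold changes are on the log2(TPM + 1) scale and understate changes of low genes. Single values were compared by exact two-sided permutation tests of 4 against 4 mice. The procedure was tested on simulated data. Same-numbered mice of different groups did not deviate together, with r between -0.24 and 0.15 over 12 pairs, so numbers were not used as pairs.

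The members, the 8 related gene lists and the 8 marker lists were chosen with earlier results of these data known. From each related list, the up to 4 genes with the largest change among those called in knockdown minus control were named, then up to 2 called in each other comparison, or the 2 of highest level where none was called. For each member the 3 features of highest Pearson r were taken. Promoter windows came from RefSeq (GRCm38.p6). Transcripts for identity came from a later GENCODE release than VM24, a single transcript per gene, and were aligned locally with Biopython 1.88. Python 3.11.15 and matplotlib 3.10.9 were used. The alternatives changed 1 choice at a time: leaving out each mouse in turn, median-of-ratios scaling, quantile normalization, a total without the 20 highest features, a pseudocount of 0.1, a minimum mean TPM of 5 or none, array weights, variances without a trend, a fit of the 2 compared groups alone, a replicate block and, for single genes, the exact permutation test in place of limma. No sample or column was left out.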

Additional observations from a re-analysis of the deposited data

Results flagged for a closer look

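Of 105 groups of 4 mice examined for 35 named genes, 7 held a mouse whose gap to the others took up more of the range of its group than Dixon's 95% limit, where chance gives about 5% of groups. Among the acute phase genes, Orm2 was at 122.747 TPM in control mouse 4 against 41.8 to 47.4 TPM in the other control mice. Lcn2 was at 75.3 TPM in knockdown mouse 3 against 49.4 to 52.0 TPM in the other knockdown mice. Among the other named genes, Saa3 was at 97.8 TPM and Tfrc at 64.6 TPM in knockdown mouse 2, against at most 73.1 and 33.2 TPM in the other knockdown mice. Cd163 was at 4.72 TPM in knockdown mouse 3 against 1.01 to 1.44 TPM in the others. Steap4 was at 131.0 TPM in knockdown mouse 1 against 174 to 177 TPM in the others. Il1r1 was at 38.6 TPM in rescue mouse 4 against 24.5 to 26.8 TPM in the others.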

How the results depend on the processing

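Of the 690 log2 fold changes of the 10 genes recomputed under the alternatives, the exact permutation test included, 646 kept their direction and their side of the threshold, 27 changed sign, 8 lost the call and 9 gained it. Several alternatives can alter P but not the fold change of these genes, so the 646 include values whose sign could not turn. They are the other filters, variances without a trend, the fit of the 2 compared groups and the replicate block. The exact test and leaving out a mouse of the group not compared are further ones. The members called in knockdown minus control numbered 2 or 3 under the alternatives that kept all mice, and 1 to 3 when each mouse was left out. In rescue minus knockdown the count of 1 fell to 0 with median-of-ratios scaling, quantile normalization, rescaling without the 20 highest features and array weights, and it was 0 to 2 when mice were left out. In rescue minus control it rose from 0 to 1 with median-of-ratios scaling (Orm1) and with array weights (Saa1). Of all genes, the 1253, 492 and 1226 called became 765, 242 and 708 with a mean TPM of at least 5, where fewer genes were tested, and in rescue minus control 721 with median-of-ratios scaling and 675 with quantile normalization. Leaving out each mouse gave 1024 to 1646, 361 to 848 and 861 to 1692, with 848 without knockdown mouse 2. Quantile normalization gave 594 higher and 542 lower in knockdown minus control, 247 and 162 in rescue minus knockdown and 458 and 217 in rescue minus control, and rescaling without the 20 highest features gave 298 and 159 in rescue minus knockdown. Counts with an adjusted p under 0.05 in limma also moved. In knockdown minus control 529 genes had one, and 33 in a fit of the 2 compared groups alone. Leaving out mice gave 165 to 1057 there. In rescue minus control 352 had one, and 3 to 1068 when mice were left out. With all mice kept, adjusted p in knockdown minus control reached 0.0531 for Hamp2 and for Itih3. It reached 0.0785 for Lifr, 0.0886 for Ifit1 and 0.128 for Smad6. Other causes of these changes were not tested.

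The sign of knockdown minus control turned for Hp with quantile normalization (0.25), and that of rescue minus knockdown for Apcs with median-of-ratios scaling (-0.066), quantile normalization (-0.048), rescaling without the 20 highest features (-0.039) and array weights (-0.037). Serpina3n turned to -0.070 in rescue minus control with median-of-ratios scaling. Leaving out mice gave these ranges for genes whose sign turned. In knockdown minus control they were -0.12 to 0.044 for Hp, -0.40 to 0.042 for Lcn2 and -0.46 to 0.11 for Apcs. For rescue minus knockdown they were -0.047 to 0.28 for Saa1, -0.00090 to 0.50 for Saa2, -0.091 to 0.24 for Orm1, -0.096 to 0.13 for Lcn2 and -0.31 to 0.26 for Apcs. For rescue minus control they were -0.38 to 0.13 for Saa2, -0.16 to 0.062 for Saa4, -0.23 to 0.28 for Orm2, -0.42 to 0.027 for Lcn2 and -0.0050 to 0.24 for Serpina3n.

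With the replicate number as a block, 2, 1 and 0 members and 1275, 516 and 1239 genes were called in the 3 comparisons. Same-numbered mice gave r over 0.1 in 2 of 12 pairs, so the numbers are not pairs. Depth is unknown, so differences of low genes cannot be bounded by counting error.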
